A study of Oryctolagus cuniculus with 15 samples.

Results

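Angiogenic and vasoactive genes of corneal keratocytes are described here through 6 genes, VEGFA, ADM, EDN1, KDR, CDH5 and EMCN, found by their symbols among the 23428 genes of the count and FPKM tables. FPKM divides the fragments of a gene by its length and by the size of the library, so it allows levels to be compared between genes of different length. Keratocytes, the resident cells of the corneal stroma, were isolated from rabbit eyes after the epithelium and endothelium had been scraped off. First-passage cells were kept for 6 days in a defined medium without serum in each of 5 conditions, with 3 libraries per condition (15 in all), each from a separate experiment and from pooled dishes or matrices. In 2DC the cells grew on dishes coated with type I collagen and were incubated with digestion medium (collagenase and hyaluronidase) before lysis, whereas in 2DC_L, the lysis control, lysis buffer went directly onto such dishes. In 2DF the cells lay on top of a fibrillar collagen matrix. In 3DF they were embedded in it at 100000 cells per matrix, and in 3DF_50 at 50000, and all matrix conditions were also digested. Their matrices were lifted out and digested in tubes, and the cells were pelleted and rinsed before lysis. The 2DC cells were digested, rinsed and lysed in the dish. These are cultures without serum or blood vessels, and the data are RNA levels only.

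VEGFA encodes the growth factor that drives the growth of blood vessels, and KDR encodes VEGFR2, the receptor kinase that carries most of its signal in endothelial cells. EDN1 gives rise to endothelin-1, a strong constrictor of vessels that acts through the receptors EDNRA and EDNRB, and ADM gives rise to adrenomedullin, a dilating peptide that acts through CALCRL together with a RAMP protein. CDH5 (VE-cadherin) and EMCN (endomucin) are adhesion and surface proteins known from vascular endothelium. The normal cornea has no vessels, and corneal stromal cells are a known source of VEGFA when vessels grow in.

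Between 14626982 and 31804255 reads were counted per library, and 15408 of the genes carry a symbol. Keratocyte genes were abundant in every library, with at least 1507 FPKM of KERA (keratocan), 5272 of LUM (lumican) and 7639 of DCN (decorin). Markers of other cells varied with the conditions. The summed level of 9 corneal epithelial markers was 0.225 to 1.15 FPKM in 2DC, 0.204 to 1.12 in 2DC_L, 0.866 to 7.05 in 2DF, 8.60 to 13.4 in 3DF and 0.128 to 6.55 in 3DF_50. That of 8 leukocyte markers was 10.01 to 14.1 FPKM in 2DF and 3.91 to 9.16 in the other conditions. In bulk RNA, fewer cells of a type and less RNA per cell cannot be told apart.

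Every one of the 6 genes was expressed in every library, and every one differed among the 5 conditions. The mean over the 15 libraries was 84.2 FPKM for VEGFA, 66.1 for ADM, 63.1 for KDR, 18.9 for EDN1, 4.72 for EMCN and 3.37 for CDH5. In the F test of condition over all 15 libraries (edgeR quasi-likelihood test on the counts, Benjamini–Hochberg adjustment over all genes tested) 6 of 6 passed an adjusted p of at most 0.05, against 41.8% of the 14036 genes tested. The edgeR adjusted p ranged from 3.34e-07 for EDN1 to 0.000646 for ADM. The highest condition mean exceeded the lowest 89.4 times for EDN1, 4.98 times for VEGFA, 3.16 times for EMCN, 2.76 times for ADM and for KDR, and 2.45 times for CDH5. The plot of levels by library shows that only KDR and EMCN had the same order of condition means (3DF highest, then 3DF_50, 2DF, 2DC and 2DC_L).

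**Figure D1:**
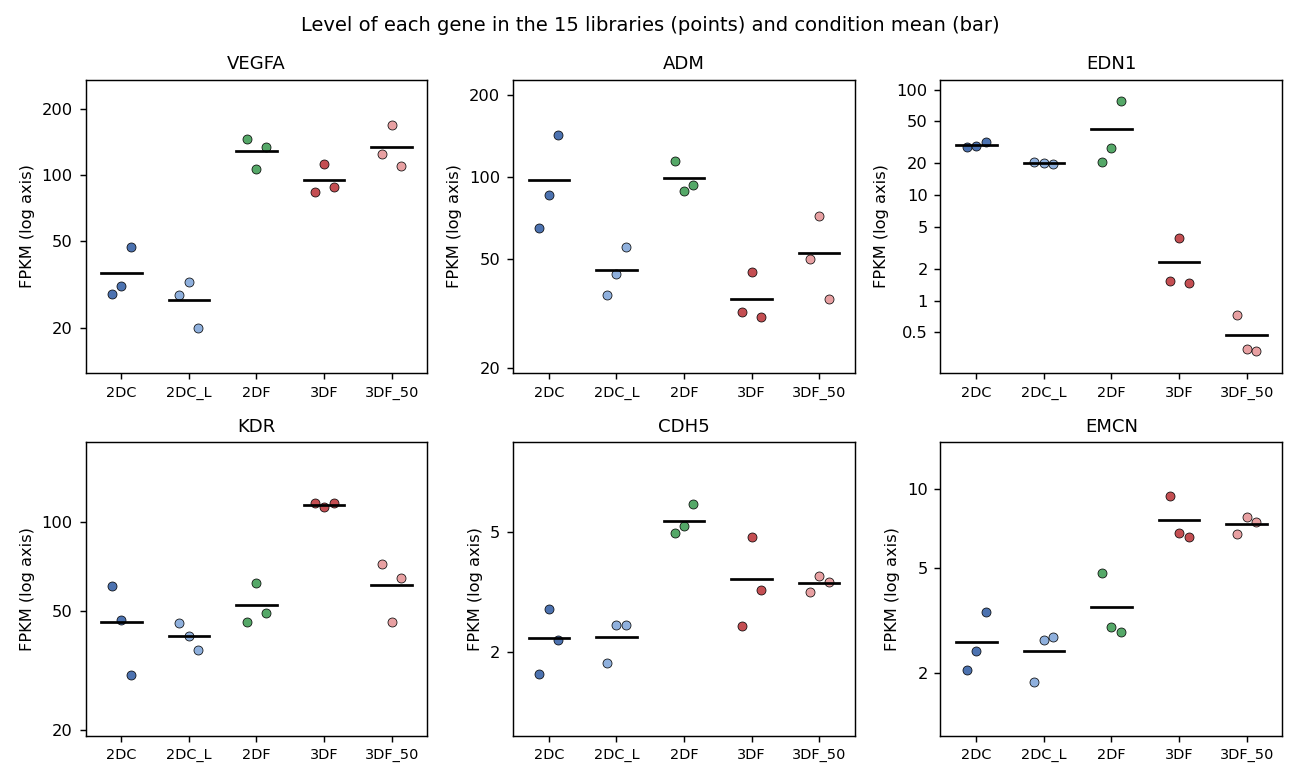
Level of VEGFA, ADM, EDN1, KDR, CDH5 and EMCN in FPKM (vertical axes, logarithmic) in the 5 conditions. Points are the 3 libraries of a condition and bars are means; EDN1 spans 0.329 to 77.6 FPKM, while KDR is highest in all 3 libraries of 3DF, at 112 to 115 FPKM.

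The main comparisons were those of 3DF, 2DF and 2DC, which ask how the dimension and the structure of the matrix bear on expression. The paper states that stiffness also differs between 2DF and 2DC, and that effective cell density is lower in 3D than in 2D. Against 2DC, the matrix conditions also differ in the steps before lysis. The parts of stiffness, of this density difference and of these steps in the main comparisons were not tested. A gene was called when the edgeR adjusted p was at most 0.05 and the log2 fold change at least 1 in size, with the 2 conditions alone in the fit. From 2DC to 3DF, VEGFA, KDR and EMCN rose and EDN1 and ADM fell, so that 5 of the 6 genes were called, where 7.56% of all genes tested were. On the matrix (2DF) against 2DC, VEGFA and CDH5 rose, 2 of 6 against 4.96%. From 2DF to 3DF, in matrices of the same collagen, KDR and EMCN rose and EDN1 and ADM fell, 4 of 6 against 3.78%. These comparisons share their libraries and are not independent of each other.

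VEGFA (oryCun2 chromosome 12, 33199538 to 33214875, plus strand) was high wherever there was a fibrillar matrix. Its level was 28.6, 31.2 and 47.0 FPKM in the 2DC libraries, 28.5, 32.6 and 20.1 in 2DC_L, 146, 107 and 134 in 2DF, 83.6, 112 and 88.5 in 3DF, and 124, 169.8 and 110.3 in 3DF_50. The 9 matrix libraries all lay above the 6 libraries from coated dishes, while the 3 matrix conditions overlapped one another, as did 2DC and 2DC_L. The mean was 35.6 ± 9.97 FPKM in 2DC (SD, n = 3), 129 ± 20.04 in 2DF and 94.9 ± 15.4 in 3DF.

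The log2 fold change of VEGFA was 1.87 from 2DC to 2DF (adjusted p = 0.000734 in edgeR, SE 0.20) and 1.41 from 2DC to 3DF (adjusted p = 0.00336 in edgeR, SE 0.21). Between 3DF and 2DF it was -0.44 (adjusted p = 0.171 in edgeR, SE 0.17), which did not pass. Neither the comparison of 3DF_50 with 2DF (0.08, adjusted p = 0.824 in edgeR) nor that of 3DF with 3DF_50 (-0.53, adjusted p = 0.174 in edgeR) passed. The order among the matrix conditions is thus not resolved.

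Of the other VEGF ligands, VEGFC, best known for its action on lymphatic vessels, was low and fell. It had 2.39, 2.11 and 3.78 FPKM in 2DC and 1.34, 1.26 and 1.15 in 3DF, groups that did not overlap, with a log2 fold change of -1.15 (adjusted p = 0.0214 in edgeR, SE 0.26). That call was lost in 3 of 6 fits that left out 1 library (2DC replicate 3, 3DF replicate 2 or 3DF replicate 3), with log2 fold changes between -1.31 and -0.85. FIGF, the gene of VEGF-D, stayed between 3.52 and 6.09 FPKM over the 15 libraries and PGF (placental growth factor) never exceeded 0.437. VEGFB was not analysed here.

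EDN1 (chromosome 12, 6011333 to 6037477, plus strand) had the widest range of the 6 genes and was low wherever cells were embedded. The libraries of 2DC held 28.5, 29.3 and 31.5 FPKM and those of 2DC_L 20.5, 20.02 and 19.6. On top of the matrix, in 2DF, the levels were 20.7, 27.9 and 77.6 FPKM. In 3DF they were 1.52, 3.91 and 1.46, and in 3DF_50 they were 0.734, 0.349 and 0.329, which are counts of 18, 9 and 9. The 6 libraries of embedded cells thus lay below all 9 others, and 3DF_50 lay below 3DF without overlap. The widest spread was in 2DF, where replicate 3 stood far above the other libraries.

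From 2DC to 3DF the log2 fold change of EDN1 was -3.70 (adjusted p = 0.000398 in edgeR, SE 0.35), and from 2DF to 3DF it was -4.19 (adjusted p = 0.00232 in edgeR, SE 0.55). Without 2DF replicate 3 the latter was -3.40, and it was still called. Against 2DC the fall in 3DF_50 was -5.99 on the log2 scale (adjusted p = 9.85e-07 in edgeR, SE 0.20). Between 2DF and 2DC the log2 fold change of 0.50 (adjusted p = 0.440 in edgeR, SE 0.40) did not pass, and it turned to -0.29 without 2DF replicate 3.

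Corneal epithelial markers were higher in 3DF than in 2DC. Of 9 measured, 5 had enough counts to be tested there, and all 5 were called, where 7.56% of all genes were. In 2DF vs 2DC, 2 had enough counts. A marker near 0 in 2DC enters the test through its counts in 3DF, so these 5 calls are not an independent test. The part of these markers in the results was not tested. The 3 libraries of 3DF_50 had summed epithelial levels of 0.128, 0.175 and 6.55 FPKM. Leukocyte markers were highest in 2DF, and 2 of 3 tested were called lower in 3DF than in 2DF (LAPTM5 and CD68), where 3.78% of all genes were called. The part of leukocyte markers in the results with 2DF was not tested.

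ADM (chromosome 1, 152089743 to 152094934, plus strand) was lower in embedded cells than in cells on top of the matrix. It had 64.9, 86.0 and 142 FPKM in 2DC, 36.9, 44.2 and 55.5 in 2DC_L, 115, 89.0 and 93.1 in 2DF, 32.0, 44.8 and 30.7 in 3DF, and 50.1, 71.8 and 35.8 in 3DF_50. All libraries of 3DF lay below those of 2DC and 2DF, whereas 2DC and 2DF overlapped, and so did 2DC_L, 3DF and 3DF_50. The log2 fold change was -1.45 from 2DC to 3DF (adjusted p = 0.0109 in edgeR, SE 0.28) and -1.46 from 2DF to 3DF (adjusted p = 0.00165 in edgeR, SE 0.18). From 2DC to 2DF it was 0.03 (adjusted p = 0.955 in edgeR, SE 0.25). An unnamed gene model on the other strand overlaps ADM, with 12 to 139 counts and at most 3.74% of the count of ADM in any library. The sources used here do not state whether counting used strand.

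The receptor gene KDR (chromosome 15, 93608021 to 93652418, plus strand) was highest in 3DF. Between 3DF and 3DF_50 KDR was not called (log2 fold change 0.87, adjusted p = 0.0605 in edgeR), and it was called in 0 of 10 other settings. Its levels were 115, 112 and 115 FPKM in 3DF, against 72.2, 46.2 and 64.9 in 3DF_50 and 46.1, 62.4 and 49.4 in 2DF. On coated dishes they were 60.7, 46.8 and 30.6 in 2DC and 45.7, 41.3 and 37.2 in 2DC_L. Each 3DF library was above every other library, while 3DF_50, 2DF and 2DC overlapped one another. A gene model of few counts (5 to 30, at most 0.434% of the count of KDR) overlaps it on the minus strand.

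KDR rose from 2DC to 3DF with a log2 fold change of 1.30 (adjusted p = 0.00625 in edgeR, SE 0.22) and from 2DF to 3DF with one of 1.12 (adjusted p = 0.0024 in edgeR, SE 0.15). In 2DF against 2DC the value was 0.20 (adjusted p = 0.594 in edgeR, SE 0.22). Thus VEGFA was higher on the matrix than on the coated dish and KDR was called only in comparisons with 3DF; the libraries of 2DF had VEGFA levels of 107 to 146 FPKM with KDR levels of 46.1 to 62.4 FPKM. The receptors FLT1 (VEGFR1) and FLT4 (VEGFR3) were near 0, with at most 0.0466 and 0.0447 FPKM in any library. Of the co-receptors, NRP1 lay between 29.9 and 43.5 FPKM and NRP2 between 10.4 and 28.4, and neither was called in the main comparisons.

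From 2DC to 3DF the endothelin receptors rose while EDN1 fell. EDNRB had 2.32, 2.25 and 3.47 FPKM in 2DC, 7.35, 15.3 and 5.79 in 2DF, and 34.0, 19.6 and 28.7 in 3DF, with no overlap among these conditions. Its log2 fold change was 3.35 from 2DC to 3DF (adjusted p = 0.000163 in edgeR, SE 0.25) and 1.83 from 2DC to 2DF (adjusted p = 0.00906 in edgeR, SE 0.34). That from 2DF to 3DF was 1.54 (adjusted p = 0.024 in edgeR, SE 0.34), a call lost without 2DF replicate 1, 2DF replicate 3 or 3DF replicate 1.

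EDNRA had 3.59, 3.06 and 3.65 FPKM in 2DC and 3.03, 4.47 and 3.15 in 2DF, which overlapped, and 8.44, 8.29 and 7.40 in 3DF, above both. It rose from 2DC to 3DF by a log2 fold change of 1.22 (adjusted p = 0.00104 in edgeR, SE 0.14) and from 2DF to 3DF by 1.18 (adjusted p = 0.00671 in edgeR, SE 0.20). In 3DF_50, where EDN1 was lowest, EDNRA had 4.26, 4.10 and 6.12 FPKM. It was not called there against 2DC (0.49, adjusted p = 0.0597 in edgeR), 2DF (0.46) or 2DC_L (0.16). From 2DC_L to 3DF EDNRA had 0.89 (adjusted p = 0.0103 in edgeR), below the fold limit. EDNRB was called from 2DC to 3DF_50 (2.43, adjusted p = 0.00012 in edgeR) but not from 2DF to 3DF_50 (0.62). Of the 4 genes of the endothelin list tested, 2 rose and 1 fell from 2DC to 3DF, where 7.56% of all genes were called. Their median log2 fold change was 0.37 beside 0.01 over all genes. The fourth, ECE1, which cuts the endothelin precursor, had a value of -0.48 and did not pass (adjusted p = 0.0969 in edgeR). EDN2 and EDN3, the other endothelin ligands, stayed at or below 0.213 FPKM.

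CALCRL, the receptor of adrenomedullin, was also higher in embedded cells. It had 1.16, 1.12 and 0.923 FPKM in 2DC, 0.814, 1.01 and 0.744 in 2DF, and 9.65, 4.84 and 5.29 in 3DF. Every 3DF library was above every library on a dish or on top of the matrix, and 3DF replicate 1 was the highest. The log2 fold change was 2.61 from 2DC to 3DF (adjusted p = 0.000639 in edgeR, SE 0.28) and 2.95 from 2DF to 3DF (adjusted p = 0.000644 in edgeR, SE 0.29), and without 3DF replicate 1 these values were 2.24 and 2.57.

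RAMP1 and RAMP2, which set the ligand that CALCRL binds, lay between 3.63 and 12.8 FPKM and between 4.58 and 10.5 FPKM and were not called. ACKR3, a scavenging receptor of chemokines that also takes up adrenomedullin, had values of 0.92 from 2DC to 3DF (adjusted p = 0.00518 in edgeR, SE 0.15) and 0.76 from 2DF to 3DF (adjusted p = 0.0343 in edgeR, SE 0.18), below the fold limit. Of 5 genes of the adrenomedullin list tested from 2DC to 3DF, 1 rose and 1 fell, with a median of 0.14, where 7.56% of all genes were called. As the plot of ligands and receptors shows, EDN1 and ADM were low and EDNRA, EDNRB and CALCRL high in the same 3 libraries.

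**Figure D2:**
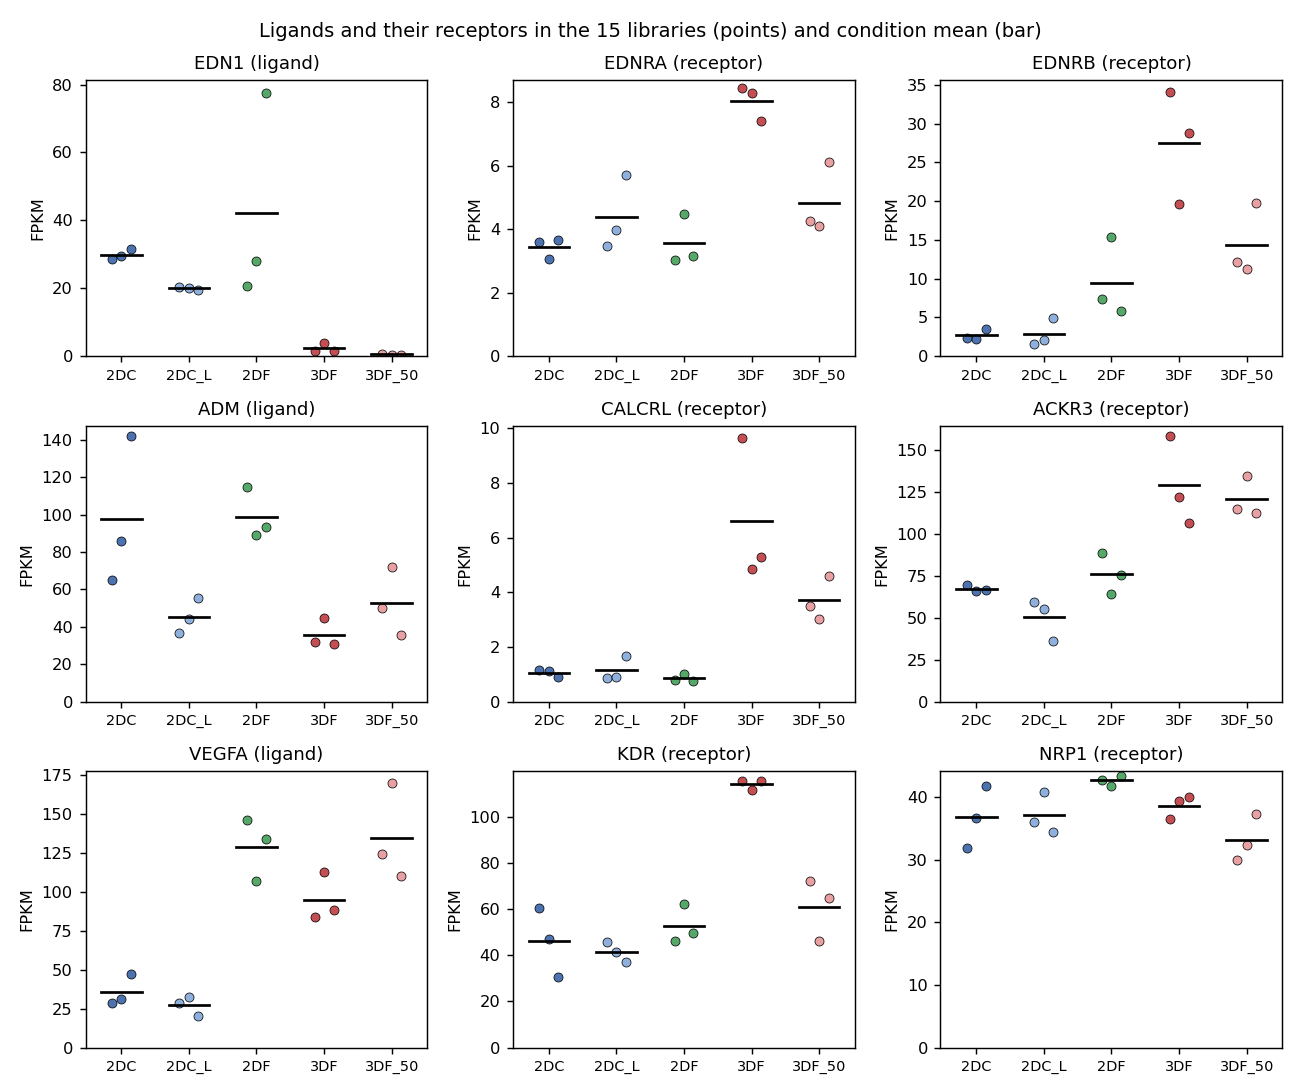
Levels in FPKM (linear axes from 0) of EDN1 with EDNRA and EDNRB, ADM with CALCRL and ACKR3, and VEGFA with KDR and NRP1, by condition. Points are libraries and bars are means of 3; in 3DF, EDN1 is 1.46 to 3.91 FPKM where EDNRB is 19.6 to 34.0, and NRP1 stays between 29.9 and 43.5 FPKM throughout.

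CDH5 (chromosome 5, 21866678 to 21902323, plus strand) had its highest levels on top of the matrix, in 2DF. It had 1.70, 2.79 and 2.20 FPKM in 2DC, 1.84, 2.46 and 2.46 in 2DC_L, 4.95, 5.25 and 6.20 in 2DF, 2.45, 4.81 and 3.23 in 3DF, and 3.18, 3.58 and 3.43 in 3DF_50. The 2DF libraries were above all others, and 3DF overlapped with 2DC, 2DC_L and 3DF_50. CDH5 rose from 2DC to 2DF with a log2 fold change of 1.30 (adjusted p = 0.0027 in edgeR, SE 0.19). The change from 2DC to 3DF was 0.64 (adjusted p = 0.167 in edgeR, SE 0.28) and that from 2DF to 3DF was -0.64 (adjusted p = 0.154 in edgeR, SE 0.24). None of the 5 partners of VE-cadherin tested, among them CTNNB1 (beta-catenin), CTNND1 (p120-catenin) and JUP (plakoglobin), was called in the main comparisons, where 3.78% to 7.56% of all genes were.

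EMCN (chromosome 15, 49347727 to 49460862, plus strand) followed embedding. The 2DC libraries had 2.05, 2.43 and 3.41 FPKM, the 2DC_L libraries 1.84, 2.66 and 2.74, and the 2DF libraries 4.81, 2.99 and 2.85. In 3DF the levels were 9.44, 6.83 and 6.61, and in 3DF_50 they were 6.74, 7.88 and 7.51. The 6 libraries of embedded cells lay above the 9 others, and the 2 densities overlapped. EMCN rose from 2DC to 3DF with a log2 fold change of 1.53 (adjusted p = 0.00299 in edgeR, SE 0.22). From 2DF to 3DF the value was 1.11 (adjusted p = 0.0217 in edgeR, SE 0.24), a call lost without 2DF replicate 2, 2DF replicate 3 or 3DF replicate 1 (0.92 to 1.39 over the fits that left out 1 library). From 2DC to 2DF it was 0.45 (adjusted p = 0.278 in edgeR, SE 0.25).

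KDR, CDH5 and EMCN are used as markers of vascular endothelium, and the other markers of that list show what these libraries held of it. Of 24 markers in the tables, 17 had a mean below 1 FPKM, the highest of these means being 0.353 and their highest level in any library 0.809. PECAM1, the defining surface protein of endothelium, was at most 0.0421 FPKM, VWF at most 0.167 and CLDN5 at 0 in 14 of the 15 libraries. The angiopoietin receptors TEK and TIE1 stayed at or below 0.158 and 0.367 FPKM, and SOX17 had 0 counts in every library. The remaining 7 were the 3 members and ERG, CD34, ENG and RAMP2, as the plot of endothelial markers shows.

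Those expressed markers did not move together. ERG, an ETS factor of endothelium, had 77.4, 70.3 and 64.1 FPKM in 2DC, 146, 156 and 145 in 2DF and 66.0, 87.3 and 68.6 in 3DF, and rose from 2DC to 2DF by a log2 fold change of 1.08 (adjusted p = 0.000395 in edgeR, SE 0.10). ENG (endoglin, a TGF-beta co-receptor) had 81.3, 88.5 and 84.8 FPKM in 2DC, 118, 127 and 168 in 2DF and 29.3, 43.2 and 38.1 in 3DF. It fell from 2DC to 3DF with -1.21 (adjusted p = 0.0016 in edgeR, SE 0.16) and from 2DF to 3DF with -1.90 (adjusted p = 0.000683 in edgeR, SE 0.19). Both genes were thus highest in 2DF, without overlap with 2DC or 3DF.

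CD34, also a marker of keratocytes, had values of 0.85 from 2DC to 3DF (adjusted p = 0.0104 in edgeR), below the fold limit, and 1.02 from 2DF to 3DF (adjusted p = 0.00385 in edgeR, SE 0.15). The latter call was lost without 2DF replicate 3 or 3DF replicate 2. Over the 10 markers tested from 2DC to 3DF, 2 rose (KDR and EMCN) and 2 fell (ENG and TIE1), with a median of 0.63 against 0.01 for all genes, of which 7.56% were called. TIE1, below 0.4 FPKM, had a value of -2.39 (adjusted p = 0.029 in edgeR, SE 0.60), a call held in 7 of 10 other settings and lost without 2DC replicate 2, 2DC replicate 3, 3DF replicate 2 or 3DF replicate 3. In 2DF against 2DC, 2 of 10 rose (CDH5 and ERG), with a median of 0.58, where 4.96% of all genes were called. From 2DF to 3DF 3 of 10 rose (KDR, EMCN and CD34) and 2 fell (ENG and ERG), with a median of -0.19, where 3.78% of all genes were called. The call of ERG there was lost without 2DF replicate 2, 3DF replicate 1 or 3DF replicate 3 (-1.15 to -0.93 over the fits that left out 1 library).

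**Figure D3:**
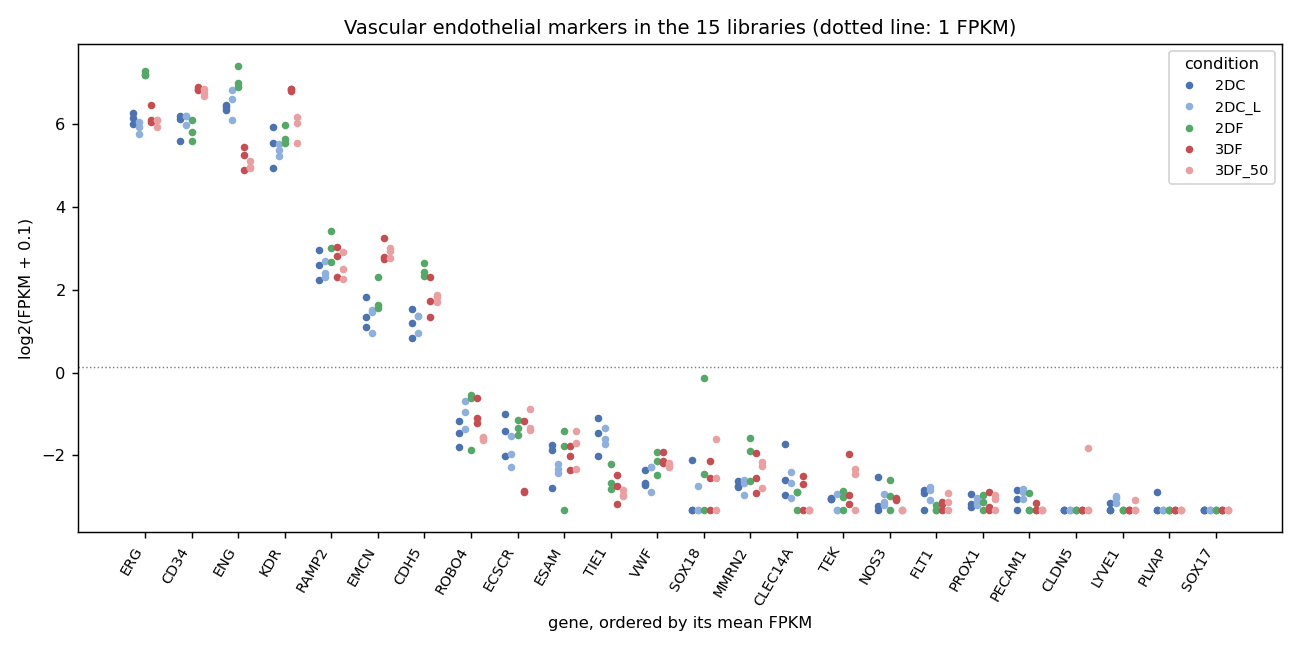
Levels of 24 vascular endothelial markers as log2(FPKM + 0.1) (vertical axis), ordered by mean; each point is a library and colours are the 5 conditions. The dotted line is 1 FPKM: 7 markers lie above it and 17 below, where PECAM1, PLVAP and SOX17 sit at or near 0.

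Between the 2 densities of embedded cells, 3DF and 3DF_50, 0 of 6 genes were called by edgeR in the direct test, with 0.452% of all genes called. At an unadjusted edgeR p under 0.05, a looser limit than that behind the 0.452%, 4 were below that level (VEGFA, KDR, EDN1 and ADM). ADM, with the largest p of these, was 2294th of 13285 genes by p, so many other genes were below it too. EDN1 was higher at the higher density by a log2 fold change of 2.26 (adjusted p = 0.0811 in edgeR, SE 0.51). DESeq2 called it, as did edgeR with all 5 conditions in the fit, without the filter, or without 3DF replicate 1. KDR was higher in 3DF by 0.87 (adjusted p = 0.0605 in edgeR, SE 0.17), with the groups apart (112 to 115 against 46.2 to 72.2 FPKM). CDH5 and EMCN had values of 0.02 each, with SE 0.23 and 0.17.

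Between cells digested before lysis (2DC) and cells lysed directly (2DC_L), 0 of 6 were called by edgeR in the direct test and 0.265% of all genes were. DESeq2 called none of the 6. EDN1 and ADM were the only members at an unadjusted edgeR p under 0.05, a looser limit than that behind the 0.265%. EDN1 was higher in 2DC by a log2 fold change of 0.57 (adjusted p = 0.0158 in edgeR, SE 0.07), under the fold limit but without overlap (28.5 to 31.5 against 19.6 to 20.5 FPKM). ADM was higher in 2DC by 1.10 (adjusted p = 0.418 in edgeR, SE 0.27), with levels of 64.9 to 142 against 36.9 to 55.5 FPKM. With the replicate number as a block ADM was called here (adjusted p = 0.0389 in edgeR). ANGPTL4, a secreted regulator of lipoprotein lipase and of vessels, was called in this comparison, with 186, 124 and 123 FPKM in 2DC and 46.8, 41.3 and 30.7 in 2DC_L (log2 fold change 1.86, adjusted p = 0.00839 in edgeR, SE 0.21). It lost the call without 2DC_L replicate 2.

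Against 2DC_L, which was not digested, the matrix conditions were compared again. From 2DC_L to 3DF VEGFA, KDR and EMCN rose and EDN1 fell, 4 of 6 genes against 10.2% of all genes. ADM, with -0.34 (adjusted p = 0.22 in edgeR, SE 0.19), was not called there, unlike in the comparison with 2DC. From 2DC_L to 2DF VEGFA, CDH5 and ADM rose, 3 of 6 against 7.39%. ADM had a log2 fold change of 1.13 there (adjusted p = 0.000817 in edgeR, SE 0.16), a call lost without 2DC_L replicate 1. The change of ADM between coated dish and matrix therefore depended on which coated-dish control was used.

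At the lower density, VEGFA and EMCN rose and EDN1 fell from 2DC to 3DF_50 (3 of 6, against 11.6% of genes) and from 2DC_L to 3DF_50 (3 of 6, against 13.5%). From 2DF to 3DF_50 EMCN rose with 1.07 (adjusted p = 0.00362 in edgeR, SE 0.19) and EDN1 fell with -6.47 (adjusted p = 6.35e-05 in edgeR, SE 0.60), 2 of 6 against 4.45%. The call of EMCN was lost without 2DF replicate 2 or 2DF replicate 3. KDR, which was called in 3 comparisons, all with 3DF, had a value of 0.41 from 2DC to 3DF_50 (adjusted p = 0.21 in edgeR, SE 0.24). Over the 10 pairs of conditions VEGFA, EMCN and EDN1 were called in 6 each, KDR and ADM in 3 each and CDH5 in 2, as plotted for all pairs.

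**Figure D4:**
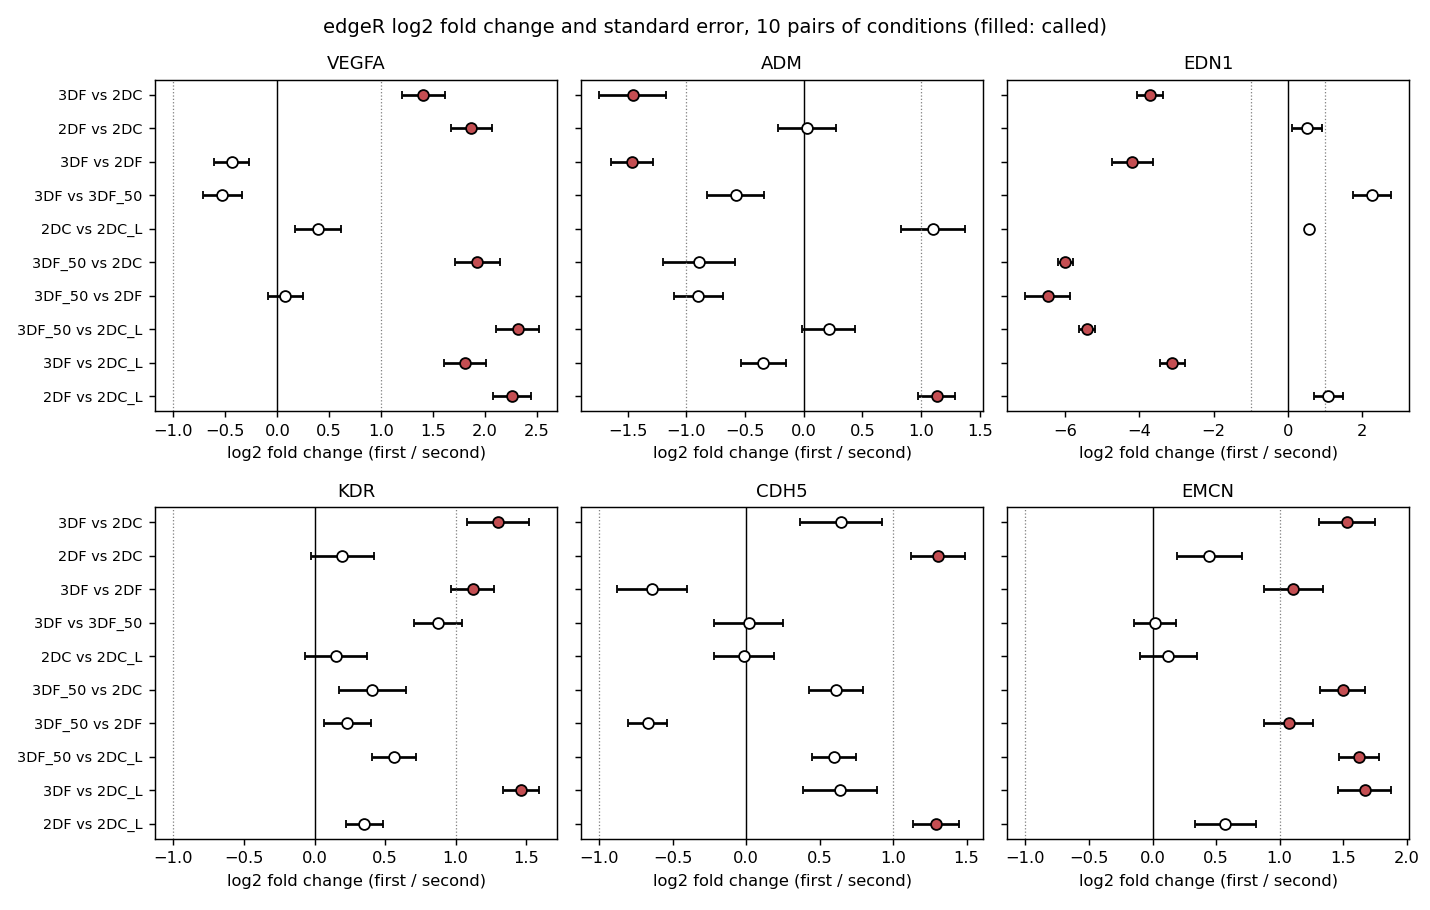
Log2 fold change of each gene (horizontal axes, first condition over second) in the 10 pairs of conditions, with its standard error from edgeR as bars. Filled points were called (adjusted p at most 0.05 and at least 1 in size, dotted lines at 1 and -1); EDN1 reaches -6.47 in 3DF_50 vs 2DF, while KDR is filled only where 3DF is compared with a 2D condition.

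Library names begin with a prefix from E2 to E10 that may mark a shared experiment, although the sources do not say so. The prefixes are spread unevenly over conditions, and 2DF shares one (E5) with 3DF_50 alone, so for 2DF against 2DC or 3DF no value within a prefix exists. Within E6, from 2DC to 3DF, VEGFA went from 47.0 to 83.6 FPKM, KDR from 30.6 to 115, EMCN from 3.41 to 9.44, EDN1 from 31.5 to 1.52 and ADM from 142 to 32.0. These are the directions of the pooled comparison. Within E7, 3DF against 3DF_50 gave 112 and 64.9 FPKM of KDR and 3.91 and 0.329 of EDN1.

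Within E3, from 2DC to 3DF_50, VEGFA was 3.98 times and EMCN 2.78 times as high, and EDN1 stood at 0.0250 times its level in 2DC, with 1 library on each side. Within E2 and E3, ADM in 2DC_L was 0.569 and 0.515 times its level in 2DC, and EDN1 was 0.719 and 0.682 times. The levels of the receptors moved within E6 as well: EDNRB was 9.82 times, EDNRA 2.31 times and CALCRL 10.5 times as high in 3DF as in 2DC. A fit of all 5 conditions with the prefix as a block kept all 5 calls between 3DF and 2DC and lost those that involve 2DF, apart from EDN1 against 3DF_50. The calls with 2DF given above for EDNRA, EDNRB, CALCRL, ERG, ENG and CD34 were lost in that fit as well, as were those of NDRG1, PFKFB3 and EPAS1 below. Those of EDNRB were also lost with limma on log2(FPKM + 1) without its filter, so that each held in 8 of 10 other settings. The values by prefix are plotted for each gene.

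**Figure D5:**
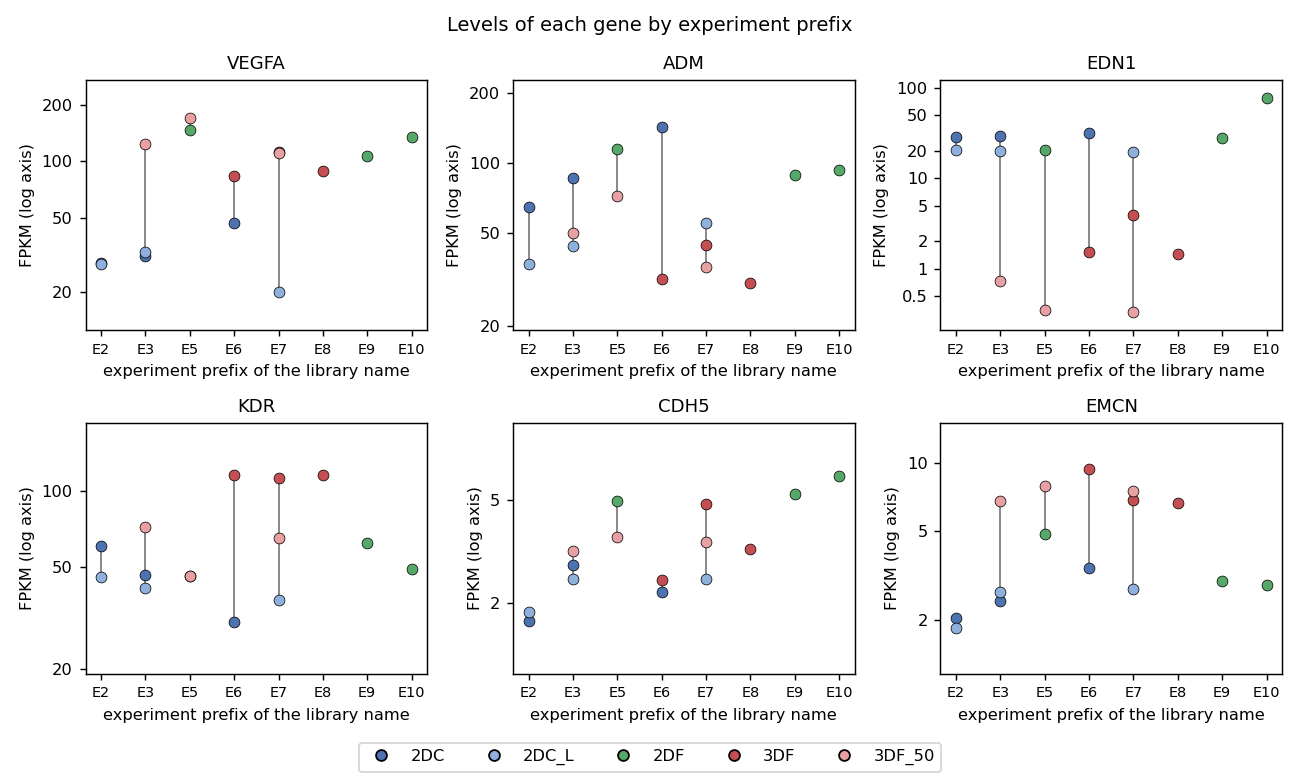
Level of each gene in FPKM (vertical axes, logarithmic) by the experiment prefix of the library name (horizontal axes). Points are libraries coloured by condition, and lines join libraries that share a prefix; in E6, the 2DC and 3DF points stand at 30.6 and 115 FPKM for KDR and at 31.5 and 1.52 for EDN1.

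VEGFA and ADM are well-known targets of the hypoxia-inducible factors, and from 2DC to 3DF they parted. From 2DC to 3DF, 1 of 19 hypoxia-induced genes tested rose (VEGFA) and 2 fell (ADM and P4HA1, a collagen prolyl hydroxylase), with a median log2 fold change of 0.11 beside 0.01 for all genes, of which 7.56% were called. P4HA1 fell from 99.4 ± 6.70 to 43.5 ± 7.30 FPKM (SD, n = 3), a log2 fold change of -1.20 (adjusted p = 0.000997 in edgeR, SE 0.14). Between 2DC and 2DF 3 of 19 rose (VEGFA, NDRG1 and PFKFB3), with a median of 0.07 and 4.96% of all genes called. From 2DF to 3DF 1 of 19 was called (ADM), with a median of -0.12 and 3.78% of all genes called. The call of PFKFB3 was lost in 4 of 6 fits that left out 1 library (2DC replicate 1 or 2, 2DF replicate 1 or 3). NDRG1, a stress-response gene, rose from 20.3 ± 2.82 to 44.2 ± 3.82 FPKM (log2 fold change 1.13, adjusted p = 0.000715 in edgeR, SE 0.12). The parting of VEGFA and ADM depended on the coated-dish control. From 2DC_L to 3DF VEGFA rose (1.81) and ADM was not called (-0.34). From 2DC_L to 2DF 5 of 19 rose and 0 fell, where 7.39% of all genes were called. VEGFA (2.26) and ADM (1.13) were both among them, and both calls were lost with the experiment prefix as a block.

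From 2DC to 3DF 7 of the 19 had an adjusted p of at most 0.05, as had 2073 of all 13493 genes tested. Of these 7, 4 were below the fold limit. They were the glycolytic enzymes HK2 (-0.98, adjusted p = 0.00957 in edgeR) and PGK1 (-0.76, adjusted p = 0.0083 in edgeR), NDRG1 (0.90, adjusted p = 0.0132 in edgeR) and the histone demethylase KDM3A (0.68, adjusted p = 0.0122 in edgeR). Among the 7 genes of the factors and their regulators, EPAS1 (HIF-2 alpha) was called from 2DF to 3DF, where it rose from 12.97, 21.9 and 10.6 to 41.2, 60.8 and 45.0 FPKM (log2 fold change 1.69, adjusted p = 0.00478 in edgeR, SE 0.26). HIF1A was not called, with values of 0.48 from 2DC to 3DF and 0.03 from 2DF to 3DF.

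ANGPTL4 followed the matrix as VEGFA did. Levels of 123 to 186 FPKM in 2DC stood against 606, 783 and 341 in 2DF and 741, 953 and 821 in 3DF. Its log2 fold changes were 2.00 (adjusted p = 0.00291 in edgeR, SE 0.29) and 2.53 (adjusted p = 0.000206 in edgeR, SE 0.20). The matrix libraries did not overlap with 2DC. ANGPTL2, a related secreted protein, rose from 2DC to 3DF with 1.19 (adjusted p = 0.00228 in edgeR, SE 0.16), from 40.5 to 46.6 FPKM to 83.4 to 125 FPKM. The angiopoietins ANGPT1, ANGPT2 and ANGPT4 stayed at or below 1.97 FPKM. Of 7 genes of this list tested from 2DC to 3DF, 2 rose and TIE1 fell, a call lost without any 1 of 4 libraries as given above, with a median of 0.78 and 7.56% of all genes called.

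Across the 15 libraries the members followed different genes. Likeness was measured by Pearson's r of log2(FPKM + 1) over the 15 libraries with each of 9689 genes that have a symbol and a mean of at least 1 FPKM. Since the libraries fall into 5 conditions, such values mostly compare condition means, and they are given without a test. Closest to VEGFA were IDH3B (r = 0.981), ETS2 (0.980) and SAT1 (0.978), closest to KDR were SPECC1 (0.976), PCDH1 (0.942) and CRISPLD1 (0.933), and closest to EDN1 were AMOTL2 (0.986), FSTL1 (0.976) and ADRA1B (0.975). SPECC1 had 33.0 FPKM in 3DF and 12.8 to 18.0 in the other condition means, the shape of KDR, and AMOTL2 had 65.5 and 47.3 in 3DF and 3DF_50 against 158 to 204 elsewhere, the shape of EDN1.

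For EMCN the closest were LRIG2 (r = 0.970), RCBTB1 (0.955) and CHD9 (0.955), and for CDH5 UNC5B, ACTR1B and ERF (0.930 to 0.931). UNC5B, a netrin receptor, had 11.7 FPKM in 2DF and 2.63 to 7.43 in the other means. ADM had no close match, with RNF135 (0.861), GLA (0.857) and TRIP4 (0.844). Among the members themselves, r over the 15 libraries was -0.88 for EMCN and EDN1, 0.77 for VEGFA and CDH5 and 0.72 for VEGFA and EMCN, while that of VEGFA and KDR was 0.41 and that of CDH5 and EDN1 0.01.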

How the data were processed

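Bulk RNA-seq was analysed for 15 libraries of rabbit corneal keratocytes, 3 in each of 5 conditions read from the library titles. The deposited counts are whole reads per gene without normalization, which the authors made with HISAT2 2.0.5 (oryCun2) and featureCounts 1.5.0-p3. The authors' deposited FPKM values divide these counts by the length of the gene and a size of the library 0.921 to 1.24 times the sum of the counts. Strandedness was not given in the sources used here. Depth was 14626982 to 31804255 reads per library, and libraries of 1 condition differed beyond sampling noise, with a chi-square of 17.1 to 89.5 per gene, so errors are those between libraries.

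The 10 pairs of conditions were tested in R 4.3.3 by the two-sided quasi-likelihood test of edgeR 4.0.16 (filterByExpr, minimum count 10; TMM scaling; the 2 conditions in the fit; SE as log2 fold change over the root of F), adjusted over all genes. The limits for a call were 0.05 on the adjusted p and 1 on the size of the log2 fold change. The scripts were tested on simulated data. DESeq2 1.42.0, limma 3.58.1 on log2(FPKM + 1) or log2(FPKM + 0.1) and the other alternatives are in the closing section. Levels are FPKM ± SD. Genes of the VEGF, endothelin, adrenomedullin and angiopoietin lists could be named with their level, and of other lists those called in a main comparison with a mean of at least 1 FPKM (at most 5 a list) or, for markers, the 3 most abundant; for each member the 3 genes of highest r were named. HK2, PGK1, KDM3A, HIF1A, PECAM1, VWF, CLDN5, SOX17, CTNNB1, CTNND1, JUP, PTGS2 and THBS1 were added after their values were seen. The members and lists were chosen with earlier results of these data known, so nothing here is independent support. The labels do not say what a replicate number marks. Same-numbered libraries deviated from their condition means together in all 3 pairs only between 2DC_L and 3DF_50 (r = 0.200, 0.131 and 0.349), and a replicate block changed no call of the 6 genes there. Replicates 1 and 2 of 2DC and 2DC_L share the prefixes E2 and E3, and the third pair does not share one (r = 0.402, 0.0622 and 0.0566). Sequences are not shown and the authors' own comparisons were not used.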

Additional observations from a re-analysis of the deposited data

How the results depend on the processing

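All 5 calls between 3DF and 2DC held under the 10 other fits and without any 1 library. All 6 genes passed the F test in every fit but that with the experiment prefix as a block. There CDH5 did not pass (adjusted p = 0.163 in the edgeR F test). Of 26 calls over the 10 pairs, 0 reversed and 10 were lost under some setting, all in pairs with 2DF, 3 of them (EMCN in 3DF vs 2DF and in 3DF_50 vs 2DF, CDH5 in 2DF vs 2DC_L) outside the prefix block. With the prefix block, 2DF replicates 2 and 3 (E9 and E10) share a prefix with no other library, so replicate 1 (E5) alone carries 2DF. That fit therefore cannot decide whether the calls with 2DF hold. The cause of the losses under other settings was not tested.

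With the experiment prefix as a block, the genes called were 0 in 2DF vs 2DC, 0 in 2DF vs 2DC_L, 0 in 3DF vs 2DF and 1 in 3DF_50 vs 2DF; 2DF shares only 1 prefix with any condition. Values not called that changed sign under it were EDN1 (-0.13) and ADM (-0.56) in 2DF vs 2DC, EMCN in 3DF vs 3DF_50 (-0.0717), CDH5 (0.19) and EMCN (-0.0199) in 2DC vs 2DC_L, KDR in 3DF_50 vs 2DF (-0.0145) and ADM in 3DF_50 vs 2DC_L (-0.23). With the replicate block, 1 gene was called in 2DC vs 2DC_L (ADM, edgeR adjusted p = 0.0389) and CDH5 in 3DF vs 3DF_50 was -0.0328; no other call of the 6 genes changed. In 3DF vs 3DF_50, 1 gene (EDN1) was called with DESeq2, 1 without the filter and 1 with all 5 conditions in the fit. Scaled by library size alone, CDH5 and EMCN there were -0.14 and -0.14, with limma at a pseudocount of 0.1 CDH5 was -0.0089. That scaling moved the median of all genes by up to 0.37 (3DF_50 vs 2DC) and by 0.19 in 3DF vs 2DC. With no limit on the fold change, 1 gene was called in 2DC vs 2DC_L and 5 in 3DF_50 vs 2DC. There were 4 in 3DF_50 vs 2DF and 5 in 3DF_50 vs 2DC_L. Over all genes, in the same order of pairs, 50 of 13608, 5098 of 13402, 1764 of 13201 and 5713 of 13321 were called so. With limma on log2(FPKM + 1), 1 was called in 3DF_50 vs 2DF, and 1 without its filter.

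With each library omitted in turn there were 0 to 1 calls in 3DF vs 3DF_50 and 1 to 3 in 3DF_50 vs 2DF. Log2 fold changes not called then ranged in 2DF vs 2DC from -0.20 to 0.40 (ADM), -0.0278 to 0.45 (KDR) and -0.29 to 0.83 (EDN1), in 3DF vs 3DF_50 from -0.16 to 0.12 (EMCN) and -0.28 to 0.22 (CDH5), in 2DC vs 2DC_L from -0.10 to 0.38 (KDR), -0.21 to 0.15 (CDH5) and -0.10 to 0.28 (EMCN), in 3DF_50 vs 2DF from -0.12 to 0.20 (VEGFA) and in 3DF_50 vs 2DC_L from -0.0803 to 0.42 (ADM). Counts over all genes went between 3DF and 3DF_50 from 60 to 201 with DESeq2, 155 without the filter, 196 with all 5 conditions, and 0 to 77 without 1 library; with the prefix block 2DF vs 2DC kept 16 of 658 and 3DF vs 2DF 4 of 499, and limma on log2(FPKM + 1) called 0.1 to 1.0 times the main counts. By Spearman's rho, 3 of the 3 genes closest to ADM stayed among its first 3, and 0 or 1 for each of the other members.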

Other observations

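Of 11 genes that restrain vessel growth tested from 2DC to 3DF, 2 fell and 0 rose, where 7.56% of all genes were called. Their median log2 fold change was -0.10 beside 0.01 for all genes. At the adjusted p limit alone 6 of the 11 passed, as did 2073 of all 13493 genes. TIMP2 (log2 fold change 0.98), SPRY1 (0.91) and THBS2 (0.73) were higher in 3DF, while THBS1 (-0.89), SERPINF1 and TIMP3 were lower. From 2DC to 3DF_50, 4 of 10 fell and 0 rose, where 11.6% of all genes were called. From 2DC to 2DF, 2 of 10 rose and 1 fell, where 4.96% of all genes were called. SERPINF1 (pigment epithelium-derived factor) had 86.5 ± 21.9 FPKM in 2DC and 41.3 ± 6.58 FPKM in 3DF (SD, n = 3; log2 fold change -1.08, adjusted p = 0.0106 in edgeR, SE 0.21), a call lost with scaling by library size alone and without 2DC replicate 1, 2DC replicate 2 or 3DF replicate 1 (-1.26 to -0.94 over the fits that left out 1 library). TIMP3, a metalloproteinase inhibitor that also blocks VEGF binding to KDR, fell from 284 ± 97.2 to 121 ± 10.5 FPKM (-1.24, adjusted p = 0.00797 in edgeR, SE 0.22), a call lost without 2DC replicate 3. From 2DC to 2DF THBS2 (thrombospondin-2) rose from 157 ± 11.1 to 407 ± 29.3 FPKM (1.38, adjusted p = 0.000247 in edgeR, SE 0.11) and TIMP2 from 271 ± 6.94 to 547 ± 66.9 (1.02, adjusted p = 0.000996 in edgeR, SE 0.12), while SERPINF1 fell to 31.6 ± 5.51 FPKM. The call of TIMP2 was lost without 2DC replicate 3 or 2DF replicate 2, and with the experiment prefix as a block all 3 of these calls with 2DF were lost.

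Of 11 other vasoactive genes tested, 0 were called from 2DC to 3DF by edgeR, where 7.56% of all genes were. Of these 11, 2 had an adjusted p of at most 0.05 but a smaller fold. At that adjusted p alone, 2073 of all 13493 genes passed. PTGS2 (cyclooxygenase-2), an early-response gene of prostaglandin synthesis, was higher in digested than in directly lysed cells, with 21.6 ± 6.71 FPKM in 2DC and 4.66 ± 1.204 in 2DC_L (log2 fold change 2.22, adjusted p = 0.00921 in edgeR, SE 0.25), a call lost without 2DC_L replicate 3. Of 8 mural cell markers tested from 2DC to 3DF, ACTA2 (smooth muscle actin) alone was called, where 7.56% of all genes were. ACTA2 had 1.32 ± 0.517 FPKM in 2DC and 0.120 ± 0.0573 in 3DF, the latter 2 to 6 counts per library.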
